A study of Mus musculus with 6 samples.

Results

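The genes described here are 5 connexins, Gja1, Gjb1, Gjb2, Gjb5 and Gjc1, out of 20 connexin genes and 53379 genes in the deposited tables. They were chosen by name, with their differences between the 2 groups of these libraries already known, so those differences are given as a description and support nothing. Total RNA was measured in 6 organoid cultures from pancreatic tumours of KPC mice, that is, tumour cells kept as small epithelial bodies in Matrigel domes. All 6 carried KrasLSLG12D/+ and Pdx1-Cre on the strain C57/Bl6, where Pdx1-Cre is a Cre recombinase driven by a promoter of the pancreatic lineage. The heterozygous libraries (n = 3) had the genotype Trp53LSLR172H/+, with a wild-type allele beside R172H, and the LOH libraries (loss of heterozygosity, n = 3) were labelled Trp53LSLR172H/-. Organoid lines 6, 23 and 34 each gave 1 library of each kind, so a line has no replicate within a genotype. The descriptions of the LOH libraries end in the suffix Nut, which no label explains and which cannot be told apart from the genotype. Ages of the mice were not given in the sources used here.

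Connexins are the subunits of gap junctions, the channels through which neighbouring cells exchange ions and small metabolites. Connexin proteins assemble into hexameric half-channels in the membrane, and half-channels of adjoining cells dock to form the channel. Each connexin gives the channel its own permeability and its own regulation. The normal exocrine pancreas is rich in the connexins encoded by Gjb1 and Gjb2, which couple secretory cells, while Gja1 is the most widely expressed connexin of epithelial and connective tissue. Gjc1 is best known from heart conduction tissue and smooth muscle, and Gjb5 from skin and placenta.

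The libraries held 13680458 to 27917277 expected counts, and the totals of the groups overlapped. A count of 3 corresponded to 0.1 to 0.223 CPM (counts scaled to the library size by TMM), and a gene with no count may lie anywhere below that. Trp53 itself ranged from 76.3 to 86.5 CPM in heterozygous and from 47.4 to 73.5 CPM in LOH libraries, and its counts do not separate the alleles. The cultures carried epithelial markers: the 7 genes of that list (among them Krt18 and Krt19) summed to 5211 to 6006 CPM in heterozygous and 5091 to 11166 CPM in LOH libraries. The 9 fibroblast markers summed to 0 to 0.1 CPM in heterozygous and 0.466 to 0.931 CPM in LOH libraries, with Col3a1 and Thy1 at 0 in all 6. The 6 smooth muscle and pericyte markers summed to 0.868 to 1.001 and 0.931 to 1.07 CPM, and the 7 endothelial markers to 0.367 to 0.701 and 0.378 to 2.91 CPM, with Emcn at 0. The 7 leukocyte markers summed to 1.93 to 2.37 and 3.26 to 14.9 CPM, most of it Cd68, with Adgre1 at 0. The 7 acinar markers summed to 0.601 to 0.742 and 0.906 to 2.44 CPM, with Ptf1a and Pnlip at 0, and the 6 endocrine markers to at most 0.1 and 0.175 CPM, with Ins1, Ins2, Sst and Neurod1 at 0.

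The promoters of the members are shown because the transcript values below refer to them. RefSeq windows (GRCm38.p6, 250 bases before to 50 after an annotated start, printed on the gene's strand) matched 4 of the 5 members and 12 of the 20 connexins. Gjc1 was not among them. Capitals mark matches to 4 motifs that were searched on both strands. The motif of AP-1 factors was written TGANTCA. The TATA box, which places the start of transcription, was written TATAAA. The GC box, bound by Sp1, was written GGGCGG. The E-box bound by the acinar factor MIST1 was written CATATG. The motifs were chosen with the windows in view, and no 2 matches overlapped. Gjb1 has several annotated starts, of which the pair that received its reads is shown.
Gja1, chr10:56377050-56377349, plus strand: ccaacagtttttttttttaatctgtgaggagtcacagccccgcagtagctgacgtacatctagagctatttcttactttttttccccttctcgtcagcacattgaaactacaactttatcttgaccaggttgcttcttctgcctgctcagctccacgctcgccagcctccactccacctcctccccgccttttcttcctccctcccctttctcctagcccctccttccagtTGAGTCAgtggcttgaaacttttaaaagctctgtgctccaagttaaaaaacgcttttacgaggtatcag
Gjb1, upstream start, chrX:101376985-101377284, plus strand: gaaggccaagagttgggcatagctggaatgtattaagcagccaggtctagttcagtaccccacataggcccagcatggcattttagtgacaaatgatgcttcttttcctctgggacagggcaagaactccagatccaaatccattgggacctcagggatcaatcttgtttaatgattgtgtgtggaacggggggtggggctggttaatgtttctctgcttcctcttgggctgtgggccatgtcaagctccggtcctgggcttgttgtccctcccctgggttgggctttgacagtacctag
Gjb1, downstream start, chrX:101383482-101383781, plus strand: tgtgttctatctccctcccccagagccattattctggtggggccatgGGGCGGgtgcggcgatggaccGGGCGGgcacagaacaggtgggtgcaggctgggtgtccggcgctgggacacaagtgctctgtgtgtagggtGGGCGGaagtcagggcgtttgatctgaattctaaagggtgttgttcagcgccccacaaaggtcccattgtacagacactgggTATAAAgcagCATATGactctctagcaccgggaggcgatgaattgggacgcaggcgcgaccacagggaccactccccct
Gjb2, chr14:57104653-57104952, minus strand: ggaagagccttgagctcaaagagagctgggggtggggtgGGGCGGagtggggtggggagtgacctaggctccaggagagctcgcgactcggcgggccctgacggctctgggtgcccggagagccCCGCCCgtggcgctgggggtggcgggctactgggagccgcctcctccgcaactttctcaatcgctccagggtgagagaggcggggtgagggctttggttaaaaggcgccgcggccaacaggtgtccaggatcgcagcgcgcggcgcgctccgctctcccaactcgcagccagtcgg
Gjb5, chr4:127358115-127358414, minus strand: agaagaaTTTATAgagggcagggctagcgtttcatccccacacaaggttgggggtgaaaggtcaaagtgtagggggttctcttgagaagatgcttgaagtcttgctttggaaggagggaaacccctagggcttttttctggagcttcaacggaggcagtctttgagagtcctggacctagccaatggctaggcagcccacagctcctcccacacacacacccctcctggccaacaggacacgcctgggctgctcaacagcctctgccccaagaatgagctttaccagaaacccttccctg

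Of all 32851 promoter windows, 7.81% held the AP-1 motif, 13.6% the TATA box, 35.7% the GC box and 3.91% the E-box. The Gja1 window held 1 match to the AP-1 motif, at positions -19 to -13 from the annotated start, and none of the others. The upstream Gjb1 window held none of the 4 motifs. The downstream one held a TATA box at -29 to -24, the E-box at -19 to -14 and 3 GC boxes. Gjb2 held a GC box on each strand, and Gjb5 held 1 TATA box, on the opposite strand at -243 to -238. A match describes letters in the window, and whether any factor binds there was not measured.

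Gja1 (connexin 43; ENSMUSG00000050953.10; chromosome 10, 56377330 to 56402513, plus strand, GRCm38) was the connexin with the most counts in each heterozygous library. Counts favour long transcripts, so this order is not an order of abundance. In TPM, which scales for transcript length, heterozygous lines 6, 23 and 34 had 38.7, 28.2 and 28.6 for Gja1. They had 31.7, 34.8 and 25.9 TPM for Gjb1. In each LOH library Gja1 had fewer counts than Gjb1 and Gjb2 and more than Gjb5 and Gjc1. It had 86.7, 79.5 and 76.9 CPM in heterozygous lines 6, 23 and 34, on 2600, 1072 and 2305 counts. LOH lines 6, 23 and 34 showed 3.96, 2.38 and 7.03 CPM on 68, 63 and 151 counts. The groups did not overlap, and the lowest heterozygous library lay far above the highest LOH library. Mean levels were 81.07 ± 5.08 and 4.46 ± 2.37 CPM (SD, 3 libraries each). The fitted log2 fold change was -4.19 (SE 0.41), an 18.2-fold lower level, with log2 ratios of -4.42, -5.01 and -3.44 in the 3 lines. Of the LOH libraries, line 34 had the most Gja1. In such bulk cultures, fewer cells that express a gene and less RNA per cell cannot be told apart.

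Reads of Gja1 were assigned almost wholly to 1 transcript. ENSMUST00000068581.8 (3071 bases, first base 56377330) took 97.8%, 99.4% and 99.4% of the gene's TPM in heterozygous lines 6, 23 and 34 and 79.2%, 100% and 99.4% in the LOH ones. The 79.2% came with 1.58 counts on a transcript of 421 bases, which length scaling weights heavily. A transcript with a retained intron, ENSMUST00000218760.1, had 25.8, 6.04 and 16.1 counts in heterozygous lines 6, 23 and 34 and 0, 0 and 1.01 in the LOH ones. So the lower Gja1 level was a lower level of its main transcript. The annotation places no other gene over Gja1.

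Gjb1 (connexin 32; ENSMUSG00000047797.14; chromosome X, 101376378 to 101385629, plus strand) encodes the main connexin of secretory and hepatic epithelium, and it differed less. It had 34.9, 47.2 and 33.7 CPM in heterozygous lines 6, 23 and 34 and 32.5, 21.9 and 18.6 CPM in LOH lines. The groups did not overlap, but LOH line 6 lay just below heterozygous line 34. Mean levels were 38.6 ± 7.44 and 24.3 ± 7.24 CPM (SD, 3 libraries each), and the log2 fold change was -0.67 (SE 0.27). Line 6 hardly differed, with a log2 ratio of -0.1 against -1.1 in line 23 and -0.85 in line 34. The log2 fold change was -1.02 without both libraries of line 6 and -0.43 without those of line 23.

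The start that Gjb1 used was the same in all libraries. ENSMUST00000052130.13, whose first base (101377273) lies in the upstream window printed above, took 98.9% of the gene's TPM in heterozygous line 6 and 100% in the other 5 libraries. ENSMUST00000119190.1, which begins at 101383736 in the downstream window, had 11.5 counts in heterozygous line 6 and 0 elsewhere. The upstream start is known from liver and pancreas, and the downstream one from myelinating Schwann cells. These shares are estimates that RSEM makes from reads at the ends where the transcripts differ. Of the factors known to act on Gjb1, Hnf4a ranged from 175.8 to 180.9 CPM in heterozygous and from 162.3 to 255.5 CPM in LOH libraries. Bhlha15, which encodes MIST1, had 0.434 to 1.11 and 0.605 to 5.4 CPM. The ranges of the groups overlapped for both factors.

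Gjb2 (connexin 26; ENSMUSG00000046352.7; chromosome 14, 57098600 to 57104702, minus strand), the usual partner of Gjb1 in secretory epithelium, was the only tested member with the opposite direction. It had 1.63, 1.78 and 2.04 CPM in heterozygous lines 6, 23 and 34, on 49, 24 and 61 counts. LOH lines 6, 23 and 34 showed 8.56, 7.66 and 42.2 CPM on 147, 203 and 906 counts. The groups did not overlap, and LOH line 34 stood far above the other LOH libraries. Mean levels were 1.82 ± 0.2 and 19.5 ± 19.7 CPM (SD, 3 libraries each). The fitted log2 fold change was 3.42 (SE 0.73), with log2 ratios of 2.33, 2.05 and 4.32 in the lines. It was 2.15 without LOH line 34 and 2.24 without both libraries of that line. All counts of Gjb2 belonged to 1 transcript, ENSMUST00000055698.7.

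Gjb5 (connexin 31.1; ENSMUSG00000042357.2; chromosome 4, 127354809 to 127358181, minus strand) was low throughout. It had 1.3, 2.003 and 0.801 CPM in heterozygous lines 6, 23 and 34, from 39, 27 and 24 counts, and 0.349, 1.13 and 0.466 CPM in the LOH libraries, from 6, 30 and 10 counts. The groups overlapped, since LOH line 23 lay above heterozygous line 34. The log2 fold change was -1.03 (SE 0.59). It was -1.71 without LOH line 23 and -0.68 without heterozygous line 23. The log2 ratio was below 0 in each line, at -1.67, -0.78 and -0.68.

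Gjc1 (connexin 45; ENSMUSG00000034520.14; chromosome 11, 102799579 to 102819700, minus strand) was hardly detected. It had 0 counts in all 3 heterozygous libraries and in LOH line 34, 4 counts in LOH line 6 and 7 in LOH line 23. The exact Poisson 95% intervals of these 2 counts, 1.09 to 10.2 and 2.81 to 14.4, cover counting error only, and a library with 0 counts allows up to 3.69. Gjc1 did not pass the filter on low counts, so it has no fold change here. The 4 counts were assigned to the transcript ENSMUST00000107075.8 and the 7 counts to ENSMUST00000092567.10, whose first bases lie at 102804901 and 102819700. The fibroblast markers, whose summed level is given above, were also higher in LOH libraries, at 0.931 CPM or less. The summed smooth muscle and pericyte markers overlapped between the groups. The part of either kind of cell in these few counts was not tested.

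**Figure D1:**
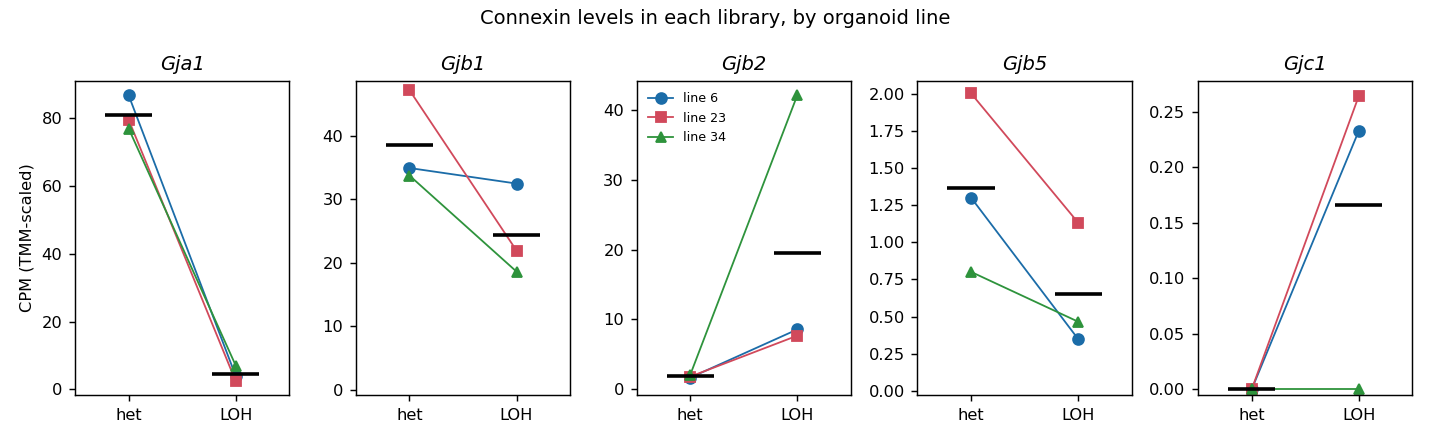
TMM-scaled CPM of the 5 connexins (vertical axes, linear, 1 scale per gene) in the heterozygous (het) and LOH libraries, with 1 line and marker per organoid line and a black bar at the mean of each group (n = 3). Gja1 lies at 2.38 to 7.03 CPM in the LOH libraries, Gjb2 at 42.2 CPM in LOH line 34, and Gjc1 at 0.264 CPM or less.

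Among the 4 members that could be tested, Gja1 and Gjb2 had an adjusted p under 0.05 in the quasi-likelihood test of edgeR. The same holds for 5.21% of all 14537 genes tested, 1.66% of them lower and 3.55% higher in LOH libraries. With the organoid line as a block Gja1 did and Gjb2 did not, against 1.47% of all genes, 1.22% higher and 0.248% lower. The groups did not overlap for 3 of the 4, and this was so for 32.8% of all genes. These counts are given beside their background only, since the contrast was used to choose the members. Without any 1 of the heterozygous libraries no gene of the table was called by edgeR, although 2272 to 2966 genes had an unadjusted p under 0.05.

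Set side by side by TPM, which scales for transcript length, the heterozygous libraries held Gja1 and Gjb1 at about the same level. Gja1 had 31.8 ± 5.91 and Gjb1 30.8 ± 4.48 TPM (SD, n = 3 each), and this pair did not differ beyond its spread. Gjb5 followed with 0.98 ± 0.396 and Gjb2 with 0.91 ± 0.082 TPM, and they did not differ beyond their spread either. In LOH libraries the order of the members was Gjb1 with 15.2 ± 5.89, Gjb2 with 7.1 ± 6.65, Gja1 with 1.39 ± 0.621 and Gjb5 with 0.353 ± 0.231 TPM. There Gjb1 and Gjb2 overlapped, while Gjb2 and Gja1 did not, nor did Gja1 and Gjb5. On the log2(TPM + 1) scale the log2 difference of a gene was 0.39 lower than in the TMM-scaled fit, as the median over the genes in both fits. Relative to that shift the log2 difference was -3.41 for Gja1, -0.63 for Gjb1 and 2.18 for Gjb2.

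The makeup of the connexin transcripts therefore differed between the groups, as a share of the summed connexin TPM of a library. Gja1 made up 31.96%, 27.003% and 28.6% of it in heterozygous lines 6, 23 and 34, and 3.65%, 2.14% and 3.9% in the LOH libraries. Gjb2 went from 0.769%, 0.784% and 0.979% to 8.28%, 8.97% and 30.3%. LOH line 34 had the highest Gjb2 share and also the lowest Gjb1 share of the 6 libraries, 21.4%. Gjb1 took 50.2% and 41% in LOH lines 6 and 23, against 25.9% to 33.2% in the heterozygous libraries. Summed over the 20 genes, connexins had 183.7, 190.8 and 177.2 CPM in the heterozygous and 72.4, 61.5 and 111.5 CPM in the LOH libraries.

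**Figure D2:**
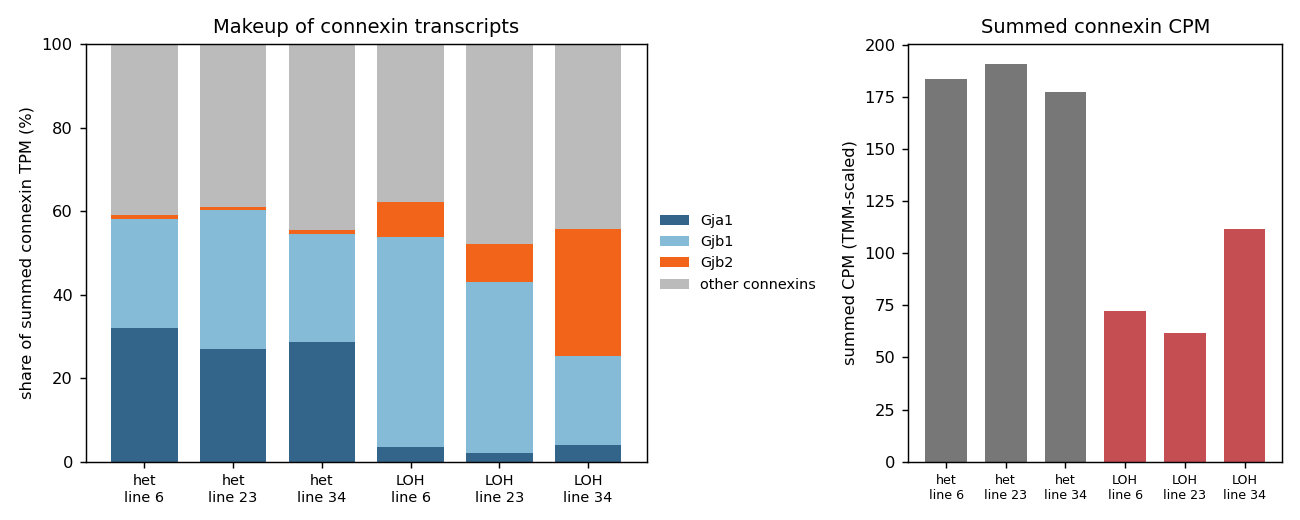
Left, share of each connexin in the summed connexin TPM (%) of each library, with the connexins not named in the legend pooled as other connexins. Right, summed CPM of the 20 connexins per library. The Gja1 share is close to that of Gjb1 in heterozygous libraries and 2.14% to 3.9% in LOH libraries, and Gjb2 reaches 30.3% in LOH line 34.

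Several connexins that are not members were near the limit of detection. Gja10, Gjc3, Gjd2, Gjd3, Gjd4 and Gje1 had 0 counts in all 6 libraries. Gja3, Gja4 and Gja6 had at most 5 counts in any library. Gja5, which shares its locus with genes on the opposite strand, had 25 counts in LOH line 23 and at most 7 in each other library. Gjb6 (connexin 30; chromosome 14, 57123303 to 57133611, minus strand) had 35 counts in LOH line 34 and 0 or 1 in each other library. That is also the library in which its neighbour Gjb2 was highest.

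Pannexins form single-membrane channels that release ATP and do not dock between cells. Panx2 had 0.234, 0.223 and 0.134 CPM in heterozygous lines 6, 23 and 34, from 7, 3 and 4 counts, and 3.03, 1.47 and 1.3 CPM in the LOH libraries, from 52, 39 and 28 counts. It rose by 3.28 on the log2 scale (SE 0.55, edgeR adjusted p 0.0273), with higher levels in all 3 lines. The heterozygous counts lay near the limit of detection, and only the LOH libraries carried Panx2 past the filter on low counts. The size of the fold is therefore uncertain, and the adjusted p is given as a description only. Panx2 was called neither with the organoid line as a block (edgeR adjusted p 0.0634) nor without 1 of the heterozygous libraries (0.128 to 0.163). The annotation places 1810021B22Rik on the opposite strand of Panx2. For Panx1, the widely expressed pannexin, the log2 fold change was -0.27 (SE 0.43) at an edgeR adjusted p of 0.725, and Panx3 had 0 counts.

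**Figure D3:**
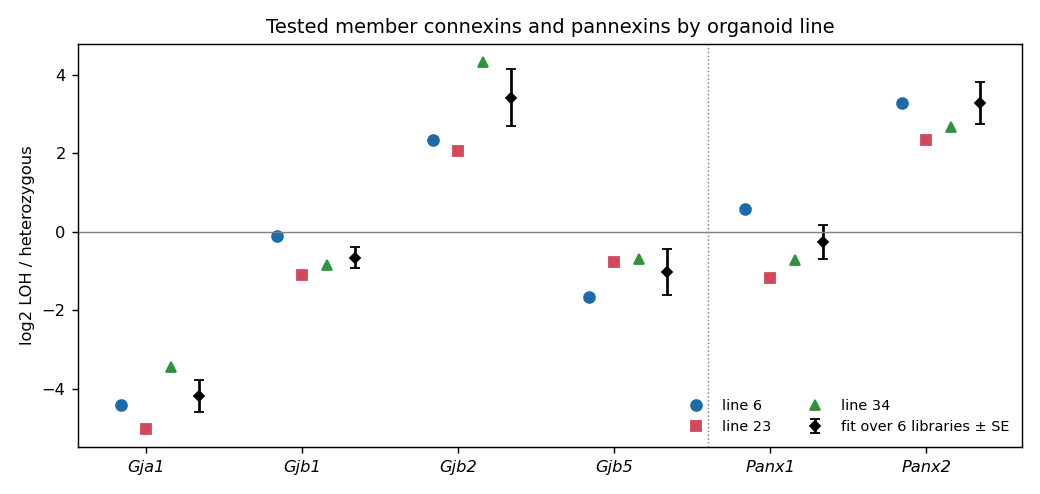
Log2 ratio of LOH to heterozygous CPM in each organoid line (coloured markers) and the log2 fold change of the edgeR fit with its SE (black diamonds) for the 4 tested members and, right of the dotted line, 2 pannexins. Gja1, Gjb1 and Gjb5 lie below 0 in all 3 lines, Gjb2 lies above 0 in all 3, and Panx1 has both signs.

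Some connexins lie near each other in the genome. Gjb5 and Gja4 lie within 46.8 kb of chromosome 4, and Gja3, Gjb2 and Gjb6 within 99.2 kb of chromosome 14. The log2 ratio of Gjb5 was -1.67, -0.78 and -0.68 in lines 6, 23 and 34. The median of 869 tested genes of chromosome 4 was also below 0, at -0.31, -0.37 and -0.21 in these lines. Its part in the values of Gjb5 was not tested. Chromosome 14 had medians of -0.05, 0.14 and 0.06, chromosome 10 of -0.43, -0.004 and 0.09, and chromosome X of -0.27, -0.12 and 0.2.

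The 3 nearest tested genes on each side of a connexin locus were compared, some of them far away. They lay 94.8 to 2301 kb from Gja1, 18.8 to 153.8 kb from Gjb1, 71.8 to 391.2 kb from the Gjb2 cluster and 63.6 to 1415 kb from the Gjb5 cluster. Around Gja1 their log2 fold changes ran from -1.59 to 0.51, and around Gjb1 from -0.78 to 0.63. They ran from -0.81 to 1.27 around the Gjb2 cluster and from -1.24 to 0.63 around the Gjb5 cluster. None of the 6 genes at any of the 4 loci had an edgeR adjusted p under 0.05, against 5.21% of all genes tested. Below 0 were 4 of the 6 around Gja1, 4 around Gjb1, 3 around the Gjb2 cluster and 5 around the Gjb5 cluster. The median over all genes tested was 0.06.

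Other genes could be ranked by how closely their log2 CPM followed each tested member over the 6 libraries, as the root mean square difference after each gene was centred on its mean, among 11793 genes. Gja1, whose log2 CPM spanned 5.14, was followed closely by Ano3 and Fam212b (0.4 and 0.45 log2 units). Ano3 had 1.56 to 2.84 CPM in heterozygous libraries and 0, 0 and 0.233 CPM in LOH lines 6, 23 and 34. Where it had 0, its log2 value was set by the prior count and not by a measured level. Fam212b went from 7.31 to 8.24 CPM to at most 0.582 CPM. Gjb1, which spanned 1.34, was followed by Pccb, a subunit of the mitochondrial propionyl-CoA carboxylase, and by Sfxn2 and Creb3 (0.03, 0.06 and 0.08). Gjb2, which spanned 4.62, was followed by Smox, Ceacam1 and Nr2f1 (0.3, 0.38 and 0.38). Smox, which encodes spermine oxidase, had 38.9, 48.1 and 184.1 CPM in LOH lines 6, 23 and 34, and Ceacam1, an adhesion molecule, had 271.2, 199.3 and 790.9 CPM. Like Gjb2, both were highest in LOH line 34. Nr2f1 had only 0.167, 0.223 and 0.534 CPM in heterozygous lines 6, 23 and 34, and 1.75, 0.944 and 8.85 CPM in the LOH lines. At such low heterozygous levels its log2 values were partly set by the prior count. Gjb5, which spanned 2.26, was followed by Pcbp3, Rgs12 and Vash2 (0.23, 0.25 and 0.27). Of so many genes some lie close to any member, so these distances are descriptions.

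Proteins that hold, move and modify connexins were examined as 4 lists. Over all 14537 genes tested, 3681 had an unadjusted p under 0.05 in edgeR, and DESeq2 called 2281. Limma on log2(TPM + 1), which tested its own set of genes, called 1911. Of 14 tested genes of scaffolds and junction partners none passed in edgeR, with 1 at an unadjusted p under 0.05, 1 called by DESeq2 and 0 by limma on log2(TPM + 1). Their median log2 fold change was 0.21, against 0.06 over all genes tested. Ctnnb1, the catenin of adherens junctions, had 948.8 ± 76.1 and 925.3 ± 302.02 CPM, and Ezr, which links membrane proteins to actin, 568.6 ± 50.4 and 622.97 ± 234.8 CPM (SD, n = 3 each, heterozygous first). Of 10 genes of trafficking and turnover none passed, with 1 at an unadjusted p under 0.05 and 0 called by DESeq2 or limma, and a median of 0.12. Nedd4, a ubiquitin ligase of the Gja1 protein, had 729.3 ± 82.004 and 673.95 ± 213.7 CPM, and Sqstm1, an autophagy receptor, 136.8 ± 41.2 and 152.8 ± 19.6 CPM (SD, n = 3 each).

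Of 14 kinases and phosphatases none passed in edgeR, with 3 at an unadjusted p under 0.05, 2 called by DESeq2 and 2 by limma, and a median of 0.09. Beside these stand 3681 of all 14537 genes at such an unadjusted p and 2281 called by DESeq2. Cdk1, the mitotic kinase, had 165.3 ± 20.97 and 84.5 ± 25.1 CPM (SD, n = 3 each, heterozygous first), a log2 difference of -0.97 (edgeR adjusted p 0.0761). Akt1 had 230.6 ± 11.6 and 159.4 ± 46.1 CPM (SD, n = 3 each), with an edgeR adjusted p of 0.228.

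Of 12 tested transcription factors known to act on connexin genes 2 rose and none fell in edgeR, where 3.55% of all genes tested were called higher and 1.66% lower. DESeq2 called 3 of the 12 and limma on log2(TPM + 1) none, 3 had an unadjusted p under 0.05 in edgeR, and the median was 0.46. Of all 14537 genes tested, 3681 had such an unadjusted p, and DESeq2 called 2281. Both genes that rose encode AP-1 subunits, of which the list held 6 tested genes, and the other 4 did not pass. Junb had 59.5, 70.9 and 69.2 CPM in heterozygous lines 6, 23 and 34 and 116.4, 119.7 and 183.05 CPM in the LOH libraries. It rose by 1.07 on the log2 scale (SE 0.23, edgeR adjusted p 0.0474). Fosl2 had 45.4, 52.1 and 32.6 CPM and 76.6, 101.9 and 98.1 CPM, a rise of 1.09 on the log2 scale (SE 0.24, edgeR adjusted p 0.0477). Both were higher in all 3 lines. With the organoid line as a block the edgeR adjusted p was 0.111 for Junb and 0.121 for Fosl2. Without 1 library it was 0.0284 to 0.211 for Junb and 0.0279 to 0.215 for Fosl2, and under 0.05 only without LOH line 6. The annotation places Prdx2 on the opposite strand of Junb, and Ctnnb1, Ezr, Sqstm1 and Hnf4a also have a gene on the opposite strand.

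**Figure D4:**
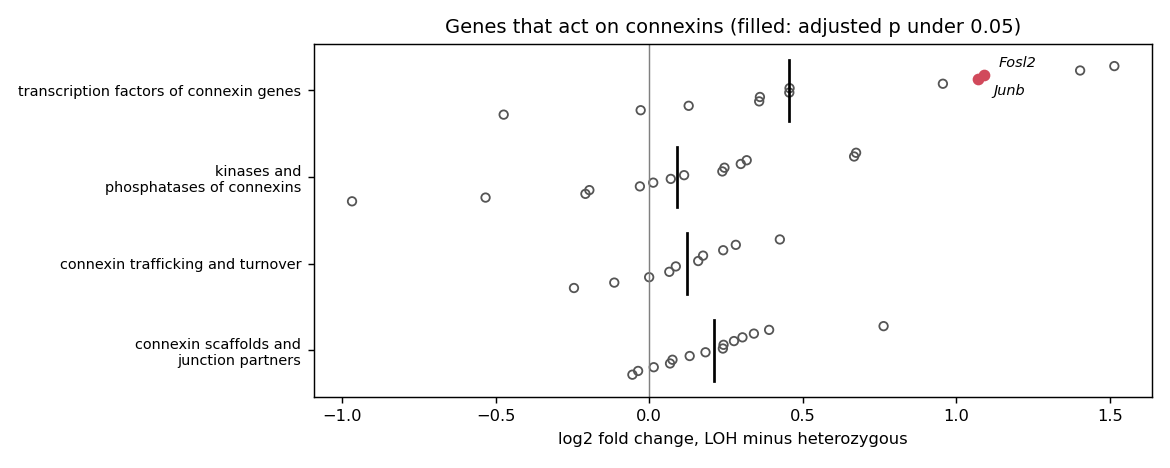
Log2 fold change (LOH minus heterozygous) of the tested genes in 4 lists of genes that act on connexins, 1 circle per gene, filled where the edgeR adjusted p was under 0.05, with a black bar at the median of each list. The filled circles are Junb and Fosl2, and the medians lie between 0.09 and 0.46.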

How the data were processed

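Per the labels, total RNA of 6 cultures was sequenced with a kit that keeps strand. The submitters' processing notes name STAR 2.5.2b, RSEM 1.3.0, DESeq2 1.44.0 and GRCm38.p5, and the strand setting is not given in the sources used here. The authors deposited expected counts per gene (RSEM splits ambiguous reads, so they can be fractional), TPM values scaled for length and depth, and percent shares of each transcript in its gene. The normalized tables the authors deposited hold a signal, the expected count divided by 1 size factor per library, used here for gene names and the protein-coding set. The deposited tables use GENCODE mouse release 16, and coordinates came from release 21 (GRCm38), which held 53274 of 53379 gene identifiers.

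Groups and line numbers came from the titles. Where nothing says that the cultures of 1 genotype are separate animals, p-values measure only the spread between these libraries. Expected counts were rounded, filtered by filterByExpr (14537 genes), scaled by TMM and tested with edgeR 4.0.16 in R 4.3.3 (quasi-likelihood, two-sided, Benjamini-Hochberg over all genes, threshold 0.05). Log2 CPM used a prior count of 2. SE is the log2 fold change over the square root of F. The fit was tested on simulated data. Libraries of 1 line are paired by their titles, and their deviations from the group means correlated at -0.3, 0.0094 and 0.29 in lines 6, 23 and 34 (from -0.39 to 0.3 between lines).

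The members, lists and rules were chosen with earlier results of these data known. Some connexins and other genes are not reported here. Named were otherwise all connexins and pannexins with a count, up to 4 called genes per list and direction or else the 2 with the highest TPM, and the 3 genes most like each member (protein-coding, at least 1 CPM). Chromosomes, neighbours, motifs and transcription factors of Gjb1 were looked at beyond that rule. Alternatives were RLE scaling, every gene kept, a minimum of 10 counts per library, protein-coding genes only, the line as a block, DESeq2 1.42.0, limma 3.58.1 on log2(TPM + 1) and log2(TPM + 0.1), and each library and line left out. Figures used matplotlib 3.10.9 in Python 3.11.15.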

Additional observations from a re-analysis of the deposited data

Results flagged for a closer look

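Panx1, a pannexin, had log2 ratios of opposite sign in the organoid lines, as 1 of the 8 tested connexins and pannexins. It had 13.1, 13.6 and 14.9 CPM in heterozygous lines 6, 23 and 34 and 19.7, 5.96 and 8.99 CPM in LOH lines. The log2 ratios were 0.58, -1.18 and -0.72, a distance of 1.75 between the highest and the lowest line. With 1 library per line and genotype, lines could not be compared by a test. Of the named genes that act on connexins, Ctnnb1, Ezr, Nedd4, Sqstm1, Hnf4a and Bhlha15 also had both signs. Those of Ctnnb1 were 0.26, -0.77 and 0.22 in lines 6, 23 and 34. Cdk1, Akt1, Junb and Fosl2 kept the same sign in each line. The share with both signs over all genes was not computed, so mixed signs are not shown to be particular to Panx1.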

How the results depend on the processing

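Gja1, Gjb1, Gjb2 and Gjb5 kept the sign of their log2 fold change under all alternatives that gave a value (17 each, 14 for Gjb5). Leaving out single libraries or lines gave -4.72 to -3.88 for Gja1, -1.02 to -0.43 for Gjb1, 2.15 to 3.8 for Gjb2 and -1.71 to -0.68 for Gjb5. Gjb1 had -1.03 in limma on log2(TPM + 1) and -1.07 on log2(TPM + 0.1), and Gjb2 had 1.78 in the first of these. On these scales the genes in both fits lay 0.39 and 0.42 lower than in the main fit, as a median over genes. With the replicate block, 213 genes of the table were called in place of 757, 1 member in place of 2, 0 other connexins and pannexins in place of 2 and 0 genes of the 4 lists in place of 2, with 2910, 2, 3 and 6 at an unadjusted p under 0.05. DESeq2 called 2281 genes and 6 of the lists, limma on log2(TPM + 1) 1911 and 2 (neither Junb nor Fosl2), and limma on log2(TPM + 0.1) 1753 and 2 (neither of them), with 1 other connexin or pannexin. With at least 10 counts in every library that number was also 1, since Panx2 was not tested. Leaving out libraries or lines gave 0 to 2449 genes, 0 to 3 members, 0 to 3 other connexins and pannexins and 0 to 4 genes of the lists in edgeR. Panx1 ran from -0.96 to 0.046 and turned sign without LOH line 23 (0.046) and without both libraries of that line (0.032). As a share of summed connexin counts in place of TPM, which favours long transcripts, heterozygous libraries had 44.1% Gja1, 20.9% Gjb1 and 0.991% Gjb2 (29.2%, 28.5% and 0.844% by TPM), and LOH libraries 5.21% Gja1 (3.23% by TPM). With libraries left out the TPM shares ran from 27.8% to 30.3% and from 2.89% to 3.77% for Gja1, and from 8.63% to 19.6% for Gjb2 in LOH libraries, the lowest without line 34. Gjc1, Gjb6 and the other connexins with few counts are limited by depth. The cause of these differences was not tested.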
